A study of Mus musculus and Homo sapiens with 34 samples.

Results

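The AP-1 and EGR immediate early factors were followed as 10 genes, Fos, Fosb, Fosl1, Fosl2, Jun, Junb, Jund, Egr1, Egr2 and Egr3, through 34 RNA sequencing libraries of mouse and human lung adenocarcinoma cultures. They were found by symbol in 7 tables of raw read counts, which list 21401 mouse and 27030 human genes in all. Every table listed all 10 except that of 1027B organoids, which had no row for Egr2. A filter on low counts left all 10 tested in 3 tables (3311, 3154 at 2 weeks and H1651 at 7 days) and 9 in the 48 h table of 3154 organoids, where Egr3 was too low. It left 8 in 1027B, H358 and H1651 at 48 h, without Egr2 and Egr3.

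The libraries form 17 groups of 2, of which 11 are mouse and 6 human. The 3154 organoids are mouse lung organoids whose alleles include p53frt, the recombinase allele Rosa-FSF-CreERT2 and Hnf4aflox. They had either ethanol or 4-hydroxytamoxifen (4OHT), which activates CreERT2 and so deletes Hnf4a, the gene of an endodermal nuclear receptor. In one experiment exposure lasted 2 days (2 mM 4OHT per the labels, a unit that could not be checked here) and RNA was taken 2 weeks later. In the other, ethanol or 4OHT was combined with vehicle or with 3 nM MRTX1133, a small-molecule inhibitor, given for 48 h, and the time from 4OHT to RNA is not clear from the labels. The 1027B lung organoids and the 3311 lung cell line have alleles that include p53frt, Rosa-FSF-CreERT2, Foxa1flox and Foxa2flox, and the labels name no deletion treatment for them here. The groups of 1027B had vehicle, 10 nM trametinib (an inhibitor of the kinases MEK1 and MEK2) or 20 nM MRTX1133, and those of 3311 had vehicle or 50 nM trametinib, in each case for 48 h. H358 and H1651, both human lung adenocarcinoma lines, were given 20 nM trametinib or its vehicle over 48 h. H1651 with a lentiviral, doxycycline-inducible HNF4α construct was compared with and without 1 µg/mL doxycycline for 7 days. Organoids grew in medium of which 50% was conditioned by L-WRN cells, and such medium itself carries growth factors. Each culture is a single line, and nothing in the labels says that replicates were separate cultures, so each p-value measures only the spread between these libraries, which may be technical.

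Immediate early genes are transcribed within minutes of a growth signal without new protein synthesis, largely through serum response factor (SRF) and its ternary complex partners, which the kinase ERK phosphorylates. FOS family proteins pair with JUN family proteins to form AP-1, a dimer that binds promoters and enhancers of protease, adhesion and proliferation genes, while EGR proteins are zinc finger factors that bind GC-rich sites. Because ERK is the last kinase of the RAF, MEK and ERK cascade, several of these genes serve as readouts of that cascade.

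Promoter sequence, the 250 bases before each RefSeq transcript start on GRCm38.p6, was on hand for 7 members, namely Fos, Fosb, Fosl2, Jun, Junb, Jund and Egr2, the last with 5 windows. Fos and Egr2, which fell with trametinib in 3311, are shown beside Jun, which had no negative change in any trametinib comparison. The Egr2 window lies at chr10:67537619-67537868 on the plus strand, and its capitals mark a CArG box, the motif bound by SRF, 72 to 63 bases before the start. The Fos window lies at chr12:85473640-85473889 on the plus strand and the Jun window at chr4:95052223-95052472 on the minus strand. Neither holds any of the motifs searched. The search covered only these 250 bases and exact matches, so sites further upstream and variants of a motif were not looked for.
Egr2: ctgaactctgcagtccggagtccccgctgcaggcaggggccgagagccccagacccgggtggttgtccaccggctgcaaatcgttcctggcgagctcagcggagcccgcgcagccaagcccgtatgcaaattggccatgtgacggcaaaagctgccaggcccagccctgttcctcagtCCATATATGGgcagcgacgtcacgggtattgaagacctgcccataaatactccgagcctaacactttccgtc
Fos: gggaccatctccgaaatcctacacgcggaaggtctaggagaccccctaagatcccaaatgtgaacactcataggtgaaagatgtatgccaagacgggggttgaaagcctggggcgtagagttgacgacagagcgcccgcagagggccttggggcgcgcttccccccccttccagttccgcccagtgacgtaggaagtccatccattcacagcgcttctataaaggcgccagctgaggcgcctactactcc
Jun: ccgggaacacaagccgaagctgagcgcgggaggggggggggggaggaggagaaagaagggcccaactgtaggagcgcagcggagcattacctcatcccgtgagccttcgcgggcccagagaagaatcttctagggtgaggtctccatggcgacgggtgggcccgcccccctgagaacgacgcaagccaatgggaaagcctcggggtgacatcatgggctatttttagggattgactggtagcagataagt
A CArG box was found in 4 of the 5 Egr2 windows and in no window of the other 6 genes. Of those 4 windows 3 overlap and hold the same CArG box, so the distinct boxes number 2. Of 32817 mouse windows of the same length, which can overlap likewise, 1.47% held one. The EGR motif GCGNGGGCG was found 50 to 42 bases before the start of Fosb and 79 to 71 bases before that of Fosl2, and in 4.7% of all windows. The AP-1 motif TGANTCA (6.75% of all windows), the cyclic AMP response element TGACGTCA (1.55%) and the ETS motif CCGGAAGT (2.88%) were found in none of the members' windows. Both strands were searched, no match overlapped another motif, and a match is a description of letters, not a site.

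Depth ran from 19692517 to 45284286 counts per library, and a floor of 3 counts came to between 0.0645 and 0.163 CPM, the count scaled to library size. Replicates differed by more than counting noise in each of the 17 groups (chi-square divided by its degrees of freedom between 5.58 and 79.7). Hnf4a, the targeted gene, stood at 315 and 427 CPM with ethanol and at 53.5 and 68.0 CPM 2 weeks after 4OHT, and at 221 and 230.1 CPM and 49.4 and 50.4 CPM in the 48 h experiment with vehicle, counted over the whole gene. HNF4A in H1651 was at 47.1 and 35.9 CPM without and 94.4 and 96.8 CPM with doxycycline. The epithelial markers Epcam, Cdh1, Krt8, Krt18 and Krt19 were detected in every mouse library, with Epcam at 54.6 CPM or more, whereas H1651 had no more than 3.81 CPM of EPCAM and 8.70 CPM of KRT19. Over the mouse libraries, listed fibroblast markers summed to 0.115 to 12.8 CPM, immune markers to 3.10 to 44.7 CPM and endothelial markers to 1.01 to 13.7 CPM. In the human libraries the same sums were 40.5 to 343 CPM, 1.40 to 5.31 CPM and 1.18 to 28.15 CPM. Of the human fibroblast markers, LUM had a median of 123 CPM (7.76 to 200 CPM).

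Levels below are CPM scaled by TMM within a table, changes are log2 ratios with standard errors (SE), and a gene was called when the Benjamini-Hochberg adjusted p of edgeR's quasi-likelihood test was under 0.05, with the adjustment over all genes of a table. With 2 libraries a group, no exact permutation test can reach that threshold.

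**Figure D1:**
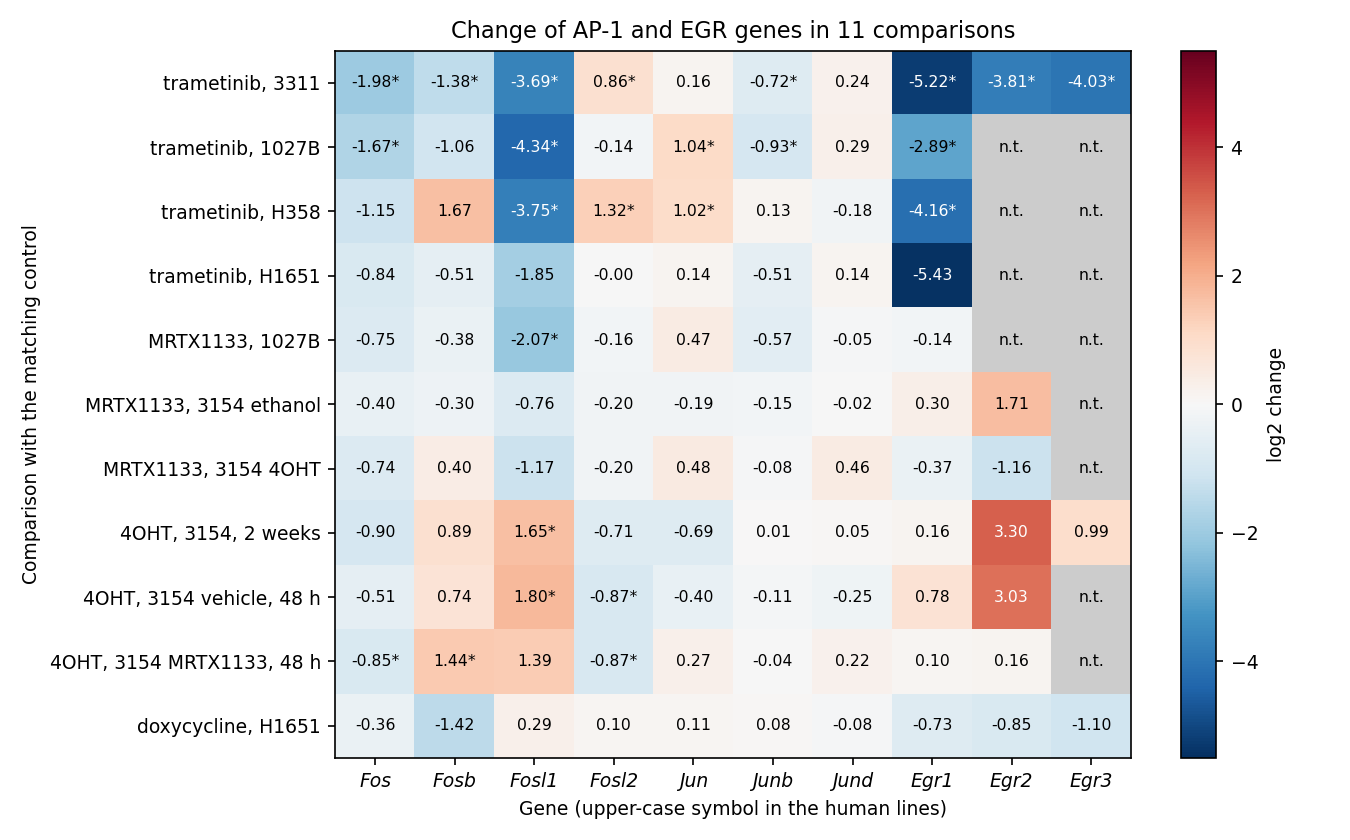
Log2 change (colour and printed number) of the 10 genes on the horizontal axis in 11 comparisons on the vertical axis, each between groups of 2 libraries; an asterisk marks an edgeR adjusted p under 0.05 and n.t. a gene not listed or not tested. Fosl1 and Egr1 have negative values in all 4 trametinib rows (-3.69 and -5.22 in 3311), and Fosl1 has positive values in the 3 rows of 4OHT against ethanol.

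Trametinib lowered most of the family in 3311 cells. All 3 EGR genes fell, as did Fosl1, Fos, Fosb and Junb, while Fosl2 rose. These are 8 of 10 tested members, 7 lower and 1 higher, where 39.0% of 15224 genes (19.4% higher and 19.6% lower) were called. Egr1, the founding EGR gene and a direct target of ERK signalling, had 39.1 and 79.7 CPM with vehicle and 0.609 and 2.59 CPM with trametinib, a 37.4-fold fall (change -5.22, SE 0.61, edgeR adjusted p = 0.00137). Its change was -4.62 without vehicle replicate 2, -4.52 without trametinib replicate 1 and -6.60 without trametinib replicate 2. The groups were far apart, and vehicle replicate 1 was the lower vehicle library for Egr1, Fos and Fosl1 alike.

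Egr3, known for its roles in lymphocytes and muscle spindles, was at 15.7 and 23.3 CPM with vehicle and 1.08 and 1.29 CPM with trametinib (change -4.03, SE 0.31, edgeR adjusted p = 0.000437). Egr2, needed for hindbrain and myelin development, was scarcer, with 71 and 80 counts against 6 and 5, or 2.64 and 3.19 CPM against 0.215 and 0.190 CPM (change -3.81, SE 0.46, edgeR adjusted p = 0.00154). Neither gene's groups overlapped. Among the trametinib experiments 3311 was the one in which both could be tested. In 1027B, Egr3 had 1 and 5 counts with vehicle and 0 and 0 with trametinib. EGR2 in H358 had 8 and 7 counts with vehicle and 1 and 0 with trametinib (ratio 0.0668, exact 95% interval 0.00159 to 0.434, for counting error only), and in H1651 8 and 12 against 1 and 2 (ratio 0.161, exact 95% interval 0.0306 to 0.541). EGR3 had 6 and 4 against 1 and 0 counts in H358 (ratio 0.100, exact 95% interval 0.00231 to 0.704) and 1 and 5 against 0 and 0 in H1651. In each of these low-count cases the trametinib libraries held fewer counts than the vehicle libraries.

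Among the FOS genes of 3311, Fosl1 (the protein FRA-1, an AP-1 subunit linked to invasive growth) had the largest fall. It went from 42.6 and 92.0 CPM to 3.48 and 7.00 CPM (change -3.69, SE 0.46, edgeR adjusted p = 0.00163), and its change was -3.03 without vehicle replicate 2 and -4.28 without trametinib replicate 2. Fos, the prototype of the family, went from 8.18 and 19.7 CPM to 3.12 and 3.96 CPM (change -1.98, SE 0.43, edgeR adjusted p = 0.0119), and its change was -1.21 without vehicle replicate 2. For both genes the groups were separate, although the vehicle libraries themselves lay far apart.

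Fosb, a close relative of Fos, went from 3.08 and 3.07 CPM to 1.29 and 1.07 CPM (change -1.38, SE 0.36, edgeR adjusted p = 0.0226). That call was lost without vehicle replicate 1 (edgeR adjusted p = 0.0523), trametinib replicate 1 (0.0785) or trametinib replicate 2 (0.131). Fosl2 (FRA-2) moved the other way, from 107 and 160.4 CPM to 245 and 240.3 CPM (change 0.86, SE 0.20, edgeR adjusted p = 0.0154). Its trametinib libraries both lay above the vehicle libraries. Junb, a JUN protein often less activating than Jun, fell from 105 and 116 CPM to 65.9 and 68.7 CPM (change -0.72, SE 0.13, edgeR adjusted p = 0.00669). Jun was at 43.8 and 39.4 CPM with vehicle and 51.5 and 41.3 CPM with trametinib, and the groups overlapped. Jund, the JUN gene with the steadiest expression in many cell types, was at 277 and 275 CPM and then 323 and 331 CPM (change 0.24, SE 0.13, edgeR adjusted p = 0.185).

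**Figure D2:**
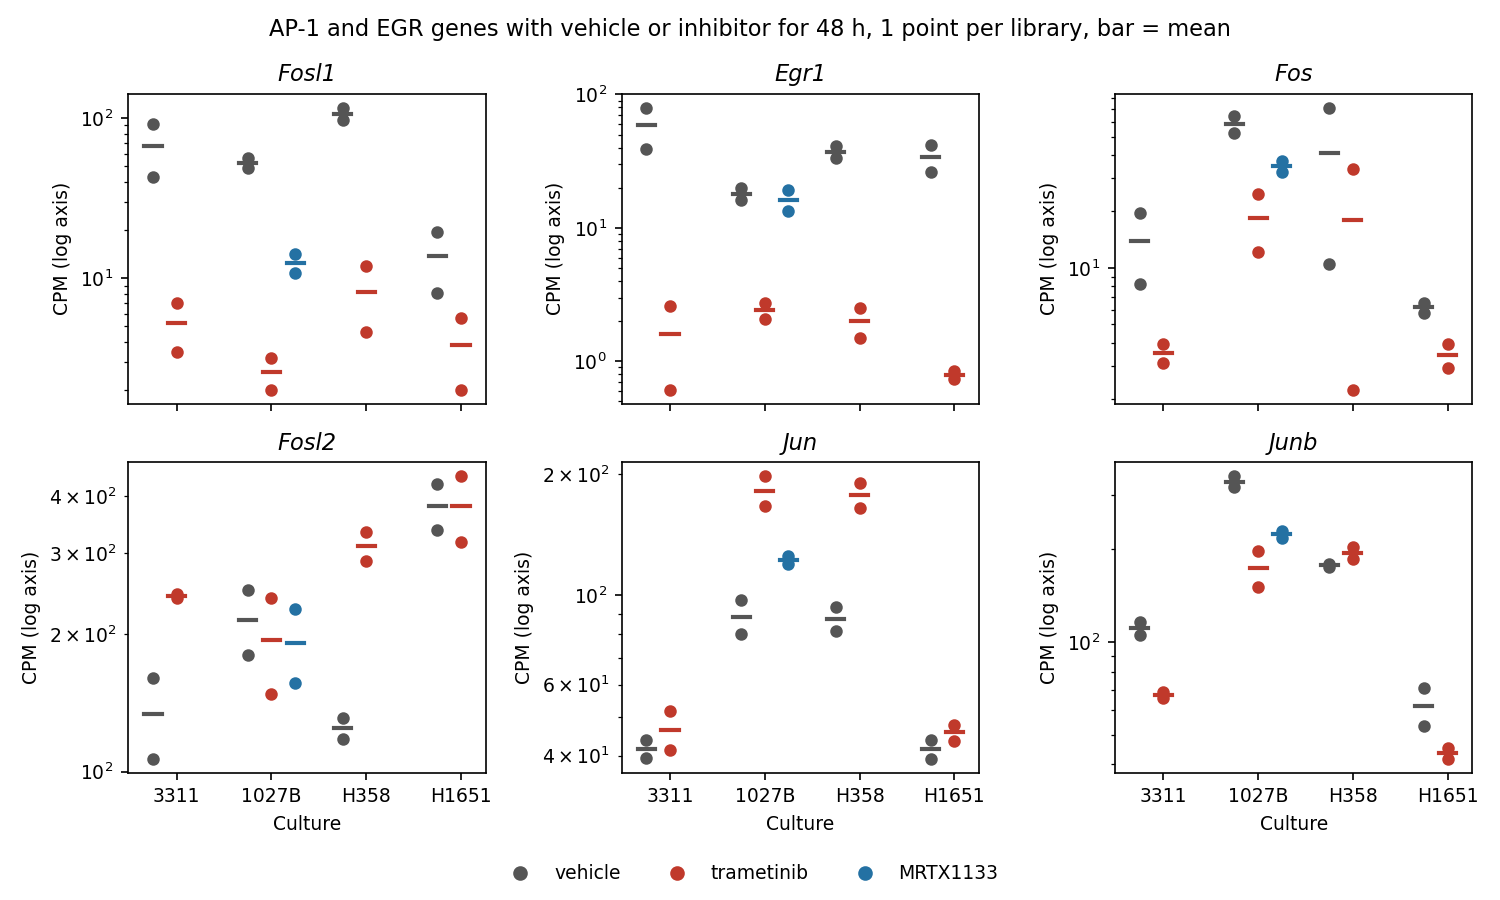
CPM on a log axis of 6 genes in 4 cultures after 48 h with vehicle, trametinib or, in 1027B, MRTX1133, with 1 point per library and a bar at the mean of 2; the 4 cultures come from separately normalized tables. Egr1 and Fosl1 lie lower with trametinib than with vehicle in each culture, and the MRTX1133 libraries of Egr1 (19.1 and 13.4 CPM) lie beside those of vehicle (19.9 and 16.1 CPM).

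In 1027B organoids trametinib lowered Fosl1, Egr1, Fos and Junb and raised Jun. These are 5 of 8 tested members, 4 lower and 1 higher, beside 26.7% of 14555 genes (13.5% higher and 13.2% lower). Fosl1 went from 48.5 and 56.0 CPM to 2.00 and 3.17 CPM, a 20.2-fold fall (change -4.34, SE 0.26, edgeR adjusted p = 0.000469). Egr1 went from 19.9 and 16.1 CPM to 2.09 and 2.75 CPM (change -2.89, SE 0.27, edgeR adjusted p = 0.00119). For both genes the groups stood several fold apart and the replicates lay close together.

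Fos in 1027B went from 52.4 and 64.2 CPM to 12.2 and 24.6 CPM (change -1.67, SE 0.31, edgeR adjusted p = 0.0105), and its change was -2.26 without trametinib replicate 2. Junb went from 318 and 346 CPM to 150.5 and 198 CPM (change -0.93, SE 0.14, edgeR adjusted p = 0.00571). Jun, the strongest transactivator among the JUN proteins, went the other way, from 97.2 and 80.0 CPM to 166 and 198 CPM (change 1.04, SE 0.14, edgeR adjusted p = 0.00337). None of these 3 pairs of groups overlapped. Fosb, with 3.29 and 3.41 CPM and then 1.20 and 2.01 CPM, was lower in both trametinib libraries and was not called (edgeR adjusted p = 0.0600). Fosl2 (179.6 and 249 CPM, then 148 and 240.0 CPM) and Jund (284 and 333 CPM, then 328 and 429 CPM) had overlapping groups.

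In H358, FOSL1 and EGR1 fell while FOSL2 and JUN rose. These are 4 of 8 tested members, a share near the 46.8% of all 18972 genes called (23.5% higher and 23.2% lower). FOSL1 went from 116 and 97.2 CPM to 4.60 and 11.9 CPM (change -3.75, SE 0.36, edgeR adjusted p = 0.000141), and its change was -3.16 without trametinib replicate 1 and -4.54 without trametinib replicate 2. EGR1 went from 40.9 and 33.5 CPM to 2.51 and 1.49 CPM (change -4.16, SE 0.24, edgeR adjusted p = 1.49e-05). FOSL2 rose from 118 and 131 CPM to 289 and 335 CPM (change 1.32, SE 0.12, edgeR adjusted p = 8.86e-05) and JUN from 93.5 and 81.5 CPM to 190.0 and 165 CPM (change 1.02, SE 0.12, edgeR adjusted p = 0.000347). All 4 pairs of groups were separate. JUNB was at 175 and 179.9 CPM and then 203 and 186 CPM (change 0.13), and JUND at 92.2 and 88.0 CPM and then 81.2 and 77.5 CPM (change -0.18), and neither was called.

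FOS and FOSB in H358 differed widely between replicates. Replicate 1 had 71.4 CPM of FOS with vehicle and 33.6 CPM with trametinib, and replicate 2 had 10.5 and 2.24 CPM. FOSB was at 4.87 and 17.8 CPM in replicate 1 and at 1.22 and 1.26 CPM in replicate 2. Replicate 1 was thus the high library of both groups for both genes. FOS was lower with trametinib at each replicate number, but the numbers are not known to mark pairs, and without them in the fit neither gene was called (FOS change -1.15, SE 1.02, edgeR adjusted p = 0.382; FOSB change 1.67, SE 0.95, edgeR adjusted p = 0.181). With 1 library left out the FOS change ran from -4.19 (edgeR adjusted p = 7.23e-06) without trametinib replicate 1 to 0.78 without vehicle replicate 1, and FOS was also called without vehicle replicate 2. The FOSB change ran from -1.28 without trametinib replicate 1 to 2.97 without vehicle replicate 1, and FOSB was called without vehicle replicate 1 or trametinib replicate 2. Neither direction was thus held across the libraries left out.

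Markers of other cell types also moved with trametinib in H358, and their part in the results was not tested. Summed fibroblast markers went from 49.2 and 40.5 CPM to 343 and 238 CPM, and of those tested 3 of 4 rose and none fell, LUM among them (change 4.02, SE 0.28, edgeR adjusted p = 3.01e-05), with COL1A2 at no more than 0.989 CPM. Summed epithelial markers went from 5534 and 5337 CPM to 3601 and 3882 CPM, where 1 of 5 rose and 3 fell. Summed endothelial markers went from 13.5 and 15.3 CPM to 28.1 and 28.1 CPM, where 2 of 4 rose and none fell, and immune markers from 1.66 and 1.40 CPM to 2.41 and 1.84 CPM, where 2 of 4 rose and none fell. H358 is a single cell line, so these genes need not mark cells of other types here. In bulk RNA, fewer cells of a type and less RNA per cell cannot be told apart.

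In H1651 trametinib gave no call in the fit without the replicate number. EGR1 went from 26.2 and 42.1 CPM to 0.733 and 0.842 CPM (change -5.43, SE 0.32, edgeR adjusted p = 0.149). In this comparison edgeR called 0 of 18277 genes (0%), while 597 genes and 4 members had an unadjusted p under 0.05, and DESeq2 called 47 genes with EGR1 among them. FOSL1 went from 8.12 and 19.4 CPM to 2.01 and 5.61 CPM (change -1.85, SE 0.62), FOS from 5.79 and 6.54 CPM to 2.93 and 3.93 CPM (change -0.84, SE 0.22) and JUNB from 53.3 and 70.8 CPM to 41.7 and 45.3 CPM (change -0.51, SE 0.16), each with an edgeR adjusted p of 0.999. For these 4 genes every trametinib library was below every vehicle library. With 1 library left out the FOSL1 change ran from -2.77 without trametinib replicate 2 to -1.08 without vehicle replicate 2, and the gene was called without vehicle replicate 1 (edgeR adjusted p = 0.000221). FOSL2, at 425 and 338 CPM and then 443 and 318 CPM, did not separate the groups, and FOSB, JUN and JUND had changes of -0.51, 0.14 and 0.14. Without vehicle replicate 1 edgeR called 2 members and without vehicle replicate 2 it called 1.

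The difference between the human lines was tested in a joint fit of their 8 libraries, each line against its own vehicle at the same dose and time. The changes of FOSL2, JUN and JUNB were higher in H358 than in H1651, 3 of 8 tested members beside 19.3% of 21188 genes (9.43% higher and 9.86% lower). The FOSL2 change was 1.35 higher (SE 0.24, edgeR adjusted p = 0.00667) and that of JUN 0.91 higher (SE 0.18, edgeR adjusted p = 0.00992). The JUN call was lost without H358 vehicle replicate 2 (edgeR adjusted p = 0.0515), where 1 member was called. JUNB differed by 0.67 (SE 0.20, edgeR adjusted p = 0.0463), and by 0.44 without H1651 vehicle replicate 2. The JUNB call was lost when any of 7 of the 8 libraries was left out, all but H1651 vehicle replicate 1 (edgeR adjusted p from 0.0541 to 0.150), with RLE factors (0.0566) and with no count filter (0.0526). FOSL1 differed by -1.87 (SE 0.79, edgeR adjusted p = 0.138) and EGR1 by 1.30 (SE 0.45, edgeR adjusted p = 0.0813), and neither was called, whereas DESeq2 called EGR1. FOS, FOSB and JUND differed by -0.28, 2.22 and -0.30. Of the ERK output genes described next, 9 of 12 had lower changes in H358. For the other lists the changes higher and lower in H358 numbered 3 and 3 for partners, 0 and 0 for upstream factors, 5 and 4 for other immediate early genes, 0 and 2 for AP-1 targets and 0 and 2 for heat shock genes. Fibroblast (3 of 5), immune (2 of 4) and endothelial (2 of 4) markers had higher and epithelial markers (2 of 5) lower changes in H358, and their part was not tested.

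The ERK output list holds phosphatases of ERK (Dusp4, Dusp5, Dusp6), Sprouty and Spred inhibitors and ETV factors among 12 genes. With trametinib 11 of 12 tested fell in 3311 (median change -1.85, all genes 0.01), 9 of 11 in 1027B (median change -1.66, all genes -0.01) and 12 of 12 in H358 (median change -3.93, all genes 0.02). None rose in these 3, and none was called in H1651, where the median change was -0.998. Etv4, an ETS factor, fell in 3311 (change -6.31, SE 0.23, edgeR adjusted p = 0.000220), in 1027B (change -3.56, SE 0.23, edgeR adjusted p = 0.000563) and in H358 (change -7.22, SE 0.20, edgeR adjusted p = 1.40e-06).

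Counts for the next lists stand beside 39.0% of all genes called in 3311, 26.7% in 1027B, 46.8% in H358 and 0% in H1651, and shares near these, as for partners in 1027B and H358 and for upstream factors in 3311 and 1027B, are no result about a list. Of partners and inhibitors of AP-1 and EGR, in 3311 1 of 9 rose and 4 fell, in 1027B 2 of 9 fell and none rose, in H358 2 of 10 rose and 3 fell, and in H1651 none of 9 was called. Maff, a small MAF protein that can pair with FOS, fell in 3311 (change -1.77, SE 0.24, edgeR adjusted p = 0.00230), in 1027B (change -1.19, SE 0.21, edgeR adjusted p = 0.00950) and in H358 (change -3.22, SE 0.25, edgeR adjusted p = 5.09e-05). Batf3, a bZIP partner of JUN, fell in 3311 (change -3.36, SE 0.46, edgeR adjusted p = 0.00227) and in H358 (change -2.56, SE 0.46, edgeR adjusted p = 0.00253). Among SRF and the ternary complex genes, the factors upstream of the family, 2 of 6 fell and none rose in 3311, 2 of 6 fell and none rose in 1027B, 1 of 6 rose and 3 fell in H358 and none of 6 was called in H1651. Elk4, a ternary complex factor, fell in the first 3 (changes -0.98, -0.38 and -0.38). Among other immediate early genes 2 of 14 rose and 2 fell in 3311, 4 of 14 rose and 4 fell in 1027B, 6 of 16 rose and 7 fell in H358 and none of 16 was called in H1651. Nr4a1, an orphan nuclear receptor, fell in 3311 (change -1.18, SE 0.15, edgeR adjusted p = 0.00176) and in 1027B (change -1.26, SE 0.15, edgeR adjusted p = 0.00236).

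Of genes known as AP-1 targets, 1 of 7 rose and 6 fell in 3311 (median change -2.02, all genes 0.01), 1 of 7 rose and 3 fell in 1027B (median change -0.82, all genes -0.01), 1 of 9 rose and 4 fell in H358 (median change -0.71, all genes 0.02) and none of 8 was called in H1651 (median change -0.42, all genes 0.00). Mmp13, a collagenase, fell in 3311 (change -3.62, SE 0.23, edgeR adjusted p = 0.000339), and in 1027B it had 68 and 29 counts with vehicle and 0 and 0 with trametinib. Heat shock genes, read as signs of handling stress, were also counted: 2 of 7 rose and none fell in 3311, 1 of 8 fell and none rose in 1027B, 6 of 8 fell and none rose in H358 and none of 8 was called in H1651. Of the tested markers in 3311, 1 of 5 epithelial fell, 1 of 2 fibroblast rose, 1 of 2 immune rose and 1 fell, and no endothelial marker was called, with immune sums of 9.55 and 15.9 CPM and then 21.8 and 28.6 CPM. In 1027B 1 of 5 epithelial and 1 of 4 immune markers rose and 1 of each fell, 1 of 1 endothelial marker rose, with sums of 2.86 and 3.95 CPM and then 8.10 and 10.0 CPM, and no fibroblast marker was called. In H1651 no marker was called. The part of these genes in the family's changes was not tested.

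MRTX1133 at 20 nM lowered a single member in 1027B, Fosl1, 1 of 8 tested beside 6.27% of 14555 genes (3.01% higher and 3.26% lower). The vehicle libraries are those that trametinib was compared with, so the 2 comparisons share them. Fosl1 went from 48.5 and 56.0 CPM to 14.1 and 10.7 CPM (change -2.07, SE 0.23, edgeR adjusted p = 0.00840). Egr1 stood at 19.1 and 13.4 CPM and its groups overlapped (change -0.14, SE 0.23, edgeR adjusted p = 0.771). Fos was at 32.3 and 37.2 CPM, Junb at 229 and 218 CPM and Jun at 125 and 119.9 CPM, each between the vehicle and the trametinib levels, and none was called (edgeR adjusted p = 0.198, 0.0692 and 0.0954). DESeq2 called Fosl1, Jun and Junb, and edgeR with the replicate number as a block called these 3 and Fos. Fosb was at 2.79 and 2.34 CPM, Fosl2 at 156 and 226 CPM and Jund at 278 and 317 CPM, and the last 2 overlapped vehicle. Of the ERK output list 5 of 11 fell and none rose (median change -0.79, all genes 0.01), with Spry4, an inhibitor of receptor tyrosine kinase signalling, lower (change -1.97, SE 0.34, edgeR adjusted p = 0.0238). Of the AP-1 targets 1 of 7 rose and none fell, of partners none of 9 was called, of upstream factors none of 6 was called, of other immediate early genes 2 of 14 rose and none fell and of heat shock genes none of 8 was called, and no marker of any cell type was called.

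MRTX1133 was then set against trametinib in 1027B, at doses that differ. Without the replicate number in the fit, edgeR called 0 of 14555 genes (0%) and so none of the 8 members. In that fit 2357 genes and 5 members had an unadjusted p under 0.05, and DESeq2 called 712 genes, among them Fosl1, Jun and Egr1. With the number as a block, edgeR called 2050 genes and 6 members, although the numbers are not known to mark pairs. Egr1 was 6.73-fold and Fosl1 4.81-fold higher with MRTX1133 (changes 2.75, SE 0.26, and 2.27, SE 0.25), both with an edgeR adjusted p of 0.0648. Their groups did not overlap. Fos, Junb and Jun differed by 0.92, 0.36 and -0.57, and no gene of the other lists was called.

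In 3154 organoids MRTX1133 at 3 nM gave no call among 9 tested members. After ethanol, edgeR called 0.349% of 15458 genes (0.317% higher and 0.0323% lower), 0 members had an unadjusted p under 0.05, and DESeq2 called 0. Fosl1 was at 1.85 and 6.29 CPM with vehicle and 1.80 and 3.01 CPM with MRTX1133, Egr1 at 5.93 and 17.4 CPM and then 8.88 and 19.9 CPM, and Fos at 33.0 and 44.0 CPM and then 22.3 and 35.9 CPM. All 3 pairs of groups overlapped, and replicate 2 was the higher library in each group. Egr2 had 1 and 2 counts and then 0 and 11 (ratio 3.42, exact 95% interval 0.904 to 19.1). The changes of Fosb, Fosl2, Jun, Junb and Jund lay between -0.30 and -0.02.

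After 4OHT, edgeR called 4.64% of 15458 genes (2.10% higher and 2.54% lower), 4 members had an unadjusted p under 0.05, DESeq2 called Fos and Jun, and a fit of the 2 groups alone called 4. Fosl1 was at 13.7 and 14.6 CPM, then 6.43 and 6.14 CPM (change -1.17, SE 0.45, edgeR adjusted p = 0.191), and Fos at 27.3 and 26.7 CPM, then 16.3 and 15.9 CPM (change -0.74, SE 0.24, edgeR adjusted p = 0.124). Jun was at 89.2 and 92.0 CPM, then 134 and 119 CPM (change 0.48, SE 0.13, edgeR adjusted p = 0.0869). For these 3 genes the groups did not overlap. Egr1 was at 22.4 and 17.5 CPM, then 16.8 and 14.0 CPM, and Fosb, Fosl2, Junb, Jund and Egr2 had changes of 0.40, -0.20, -0.08, 0.46 and -1.16.

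Whether the MRTX1133 change differed after 4OHT was tested by the interaction term of the 8-library fit. edgeR called none of 9 members and 0 of 15458 genes (0%), 1150 genes and 1 member, Jun, had an unadjusted p under 0.05, and DESeq2 called 36 genes and 0 members. The difference was 0.67 for Jun (SE 0.19, edgeR adjusted p = 0.551), -0.41 for Fosl1 (SE 0.67) and -0.68 for Egr1 (SE 0.70). Of the ERK output list none of 12 was called after ethanol and 4 of 12 fell and none rose after 4OHT, Spry4 among the latter (change -1.52, SE 0.17, edgeR adjusted p = 0.0131), and of the AP-1 targets none of 9 was called and 2 of 9 fell and none rose, Mmp13 and Hmga1 (changes -0.96 and -0.76). No partner, upstream factor, heat shock gene or marker was called in either, and of other immediate early genes 1 and 2 of 15 rose, Ccn1 in both.

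Exposure of 3154 organoids to 4OHT was followed for all members. At 2 weeks Fosl1 alone was called, and it rose, 1 of 10 tested members beside 9.81% of 14492 genes (4.03% higher and 5.78% lower). Its level went from 6.20 and 8.80 CPM with ethanol to 16.0 and 31.0 CPM with 4OHT (change 1.65, SE 0.37, edgeR adjusted p = 0.0495). The groups did not overlap, but the call lay at the border of the threshold, and the share of members called was near that of all genes. DESeq2 called Fosl1, Fosl2 and Jun. Without 4OHT replicate 2 the change was 1.10 (edgeR adjusted p = 0.155), and with at least 10 counts in every library the edgeR adjusted p was 0.0563. Fosl2 was at 157 and 189 CPM with ethanol and 90.0 and 121 CPM with 4OHT (change -0.71, SE 0.19, edgeR adjusted p = 0.0702), and Jun at 85.7 and 109 CPM and then 49.3 and 71.2 CPM (change -0.69, SE 0.22, edgeR adjusted p = 0.110). Fos, at 24.2 and 37.5 CPM and then 10.3 and 22.7 CPM, was also below ethanol in both 4OHT libraries (edgeR adjusted p = 0.214). Without ethanol replicate 1, 4 members were called.

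Egr2 had 0 and 2 counts with ethanol and 11 and 13 with 4OHT at 2 weeks (ratio 11.05, exact 95% interval 2.74 to 96.4, for counting error only), and was not called (edgeR adjusted p = 0.0937). Egr1, Egr3 and Junb spread by replicate. Egr1 was at 12.9 and 25.3 CPM with ethanol and 11.5 and 31.0 CPM with 4OHT, Egr3 at 0.659 and 1.62 CPM and then 0.427 and 4.05 CPM, and Junb at 124 and 253 CPM and then 137 and 243 CPM. Replicate 2 was the higher library of each group for all 3 genes. Fosb was at 0.659 and 1.53 CPM and then 1.77 and 2.21 CPM, and Jund at 258 and 220.2 CPM and then 259 and 234 CPM.

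**Figure D3:**
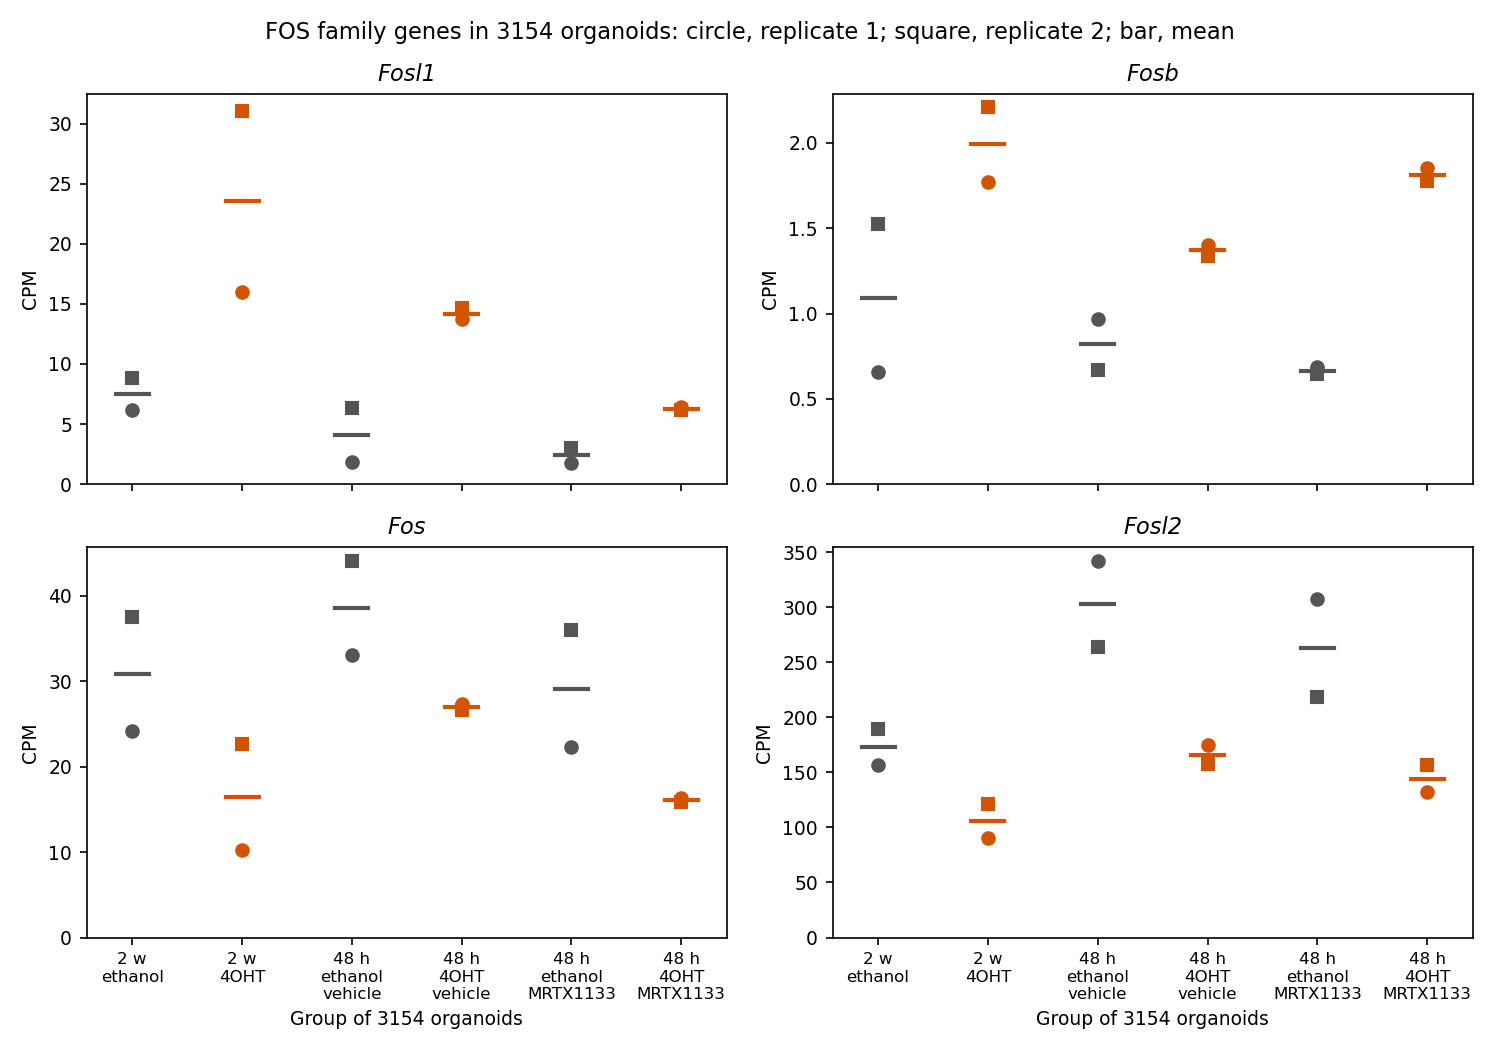
CPM of the 4 FOS family genes (vertical axes) in the 6 groups of 3154 organoids (horizontal axes), with a circle for replicate 1, a square for replicate 2 and a bar at the mean; the 2-week and 48 h groups come from separately normalized tables. Fosl1 and Fosb lie higher and Fosl2 lower in each 4OHT group than in its ethanol group, with Fosl1 at 14.2 CPM on average with 4OHT and vehicle and 6.28 CPM with 4OHT and MRTX1133.

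In the 48 h experiment Fosl1 rose and Fosl2 fell with 4OHT and vehicle. These are 2 of 9 tested members, a share below the 31.0% of all 15458 genes called (15.3% higher and 15.7% lower). Fosl1 went from 1.85 and 6.29 CPM to 13.7 and 14.6 CPM (change 1.80, SE 0.47, edgeR adjusted p = 0.0224). Its change was 2.93 without ethanol vehicle replicate 2 and 1.16 without ethanol vehicle replicate 1. The call was lost without 4OHT vehicle replicate 1 (edgeR adjusted p = 0.0828) or 2 (0.0998) and in a fit of the 2 groups alone (0.0703). Fosl2 went from 342 and 264 CPM to 175 and 158 CPM (change -0.87, SE 0.20, edgeR adjusted p = 0.0145), a call lost without 4OHT vehicle replicate 1 (edgeR adjusted p = 0.0698) or 2 (0.111). Neither gene's groups overlapped. Without ethanol vehicle replicate 1, 4 members were called.

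Egr2 had 1 and 2 counts with ethanol and 17 and 10 with 4OHT (ratio 8.79, exact 95% interval 2.703 to 45.2, edgeR adjusted p = 0.0758). Egr3, not tested, had 5 and 4 and then 9 and 6 counts. Fosb (change 0.74, SE 0.29, edgeR adjusted p = 0.0880), Jun (change -0.40, SE 0.13, edgeR adjusted p = 0.0525), Fos (change -0.51, SE 0.23, edgeR adjusted p = 0.130) and Egr1 (change 0.78, SE 0.50, edgeR adjusted p = 0.273) had groups that did not overlap and were not called. The Egr1 change was 1.74 without ethanol vehicle replicate 2, where it was called (edgeR adjusted p = 0.0157), and 0.20 without ethanol vehicle replicate 1. Junb and Jund had changes of -0.11 and -0.25, with overlapping groups. DESeq2 called Jun as well as Fosl1 and Fosl2.

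With MRTX1133 present, 4OHT lowered Fos and Fosl2 and raised Fosb. These are 3 of 9 tested members, a share near the 27.7% of all 15458 genes called (13.2% higher and 14.5% lower). Fos went from 22.3 and 35.9 CPM to 16.3 and 15.9 CPM (change -0.85, SE 0.24, edgeR adjusted p = 0.0308), and its change was -0.48 without ethanol MRTX1133 replicate 2. Fosl2 went from 307 and 219 CPM to 132 and 156 CPM (change -0.87, SE 0.20, edgeR adjusted p = 0.0161). Fosb, at low counts (18 and 16, then 47 and 50), went from 0.689 and 0.643 CPM to 1.85 and 1.77 CPM (change 1.44, SE 0.29, edgeR adjusted p = 0.00873). The 3 calls were lost without either 4OHT MRTX1133 library, with edgeR adjusted p from 0.0520 to 0.147, that of Fos also without ethanol MRTX1133 replicate 2 (0.145) and that of Fosl2 without ethanol MRTX1133 replicate 1 (0.0986). Fosl1 was at 1.80 and 3.01 CPM and then 6.43 and 6.14 CPM (change 1.39, SE 0.49, edgeR adjusted p = 0.0694). It was called by DESeq2 and with the replicate number as a block. Jun, Junb, Jund, Egr1 and Egr2 had changes of 0.27, -0.04, 0.22, 0.10 and 0.16.

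The lists are read beside 9.81% of all genes called at 2 weeks, 31.0% with vehicle and 27.7% with MRTX1133. Of the partners of AP-1 and EGR, 1 of 9 rose and 1 fell at 2 weeks, 4 of 9 fell and none rose with vehicle (median change -0.33, all genes 0.01) and 1 of 9 rose and 5 fell with MRTX1133 (median change -1.05, all genes -0.01). Atf3, a stress-induced bZIP partner of JUN, fell at 2 weeks (change -1.15, SE 0.26, edgeR adjusted p = 0.0496), with vehicle (change -2.27, SE 0.21, edgeR adjusted p = 0.000452) and with MRTX1133 (change -1.44, SE 0.21, edgeR adjusted p = 0.00217). Batf3 fell with vehicle (change -1.62, SE 0.21, edgeR adjusted p = 0.00161) and with MRTX1133 (change -1.82, SE 0.22, edgeR adjusted p = 0.00111). Elk3, a ternary complex factor, was the one called gene of the 6 upstream factors in each comparison and rose at 2 weeks (change 1.39, SE 0.16, edgeR adjusted p = 0.0124), with vehicle (change 1.05, SE 0.15, edgeR adjusted p = 0.00190) and with MRTX1133 (change 0.93, SE 0.14, edgeR adjusted p = 0.00307).

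Of the AP-1 targets 4 of 10 rose and none fell at 2 weeks, 6 of 9 rose and none fell with vehicle and 7 of 9 rose and none fell with MRTX1133. The median change of this list was 2.11 at 2 weeks (all genes 0.02), 1.53 with vehicle at 48 h (all genes 0.01) and 0.987 with MRTX1133 (all genes -0.01). Mmp9, a gelatinase, rose at 2 weeks (change 4.94, SE 0.98, edgeR adjusted p = 0.0363), with vehicle (change 3.11, SE 0.48, edgeR adjusted p = 0.00287) and with MRTX1133 (change 4.02, SE 0.57, edgeR adjusted p = 0.00205).

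Of the ERK output list 1 of 12 rose and none fell at 2 weeks, 1 of 12 rose and 2 fell with vehicle and 1 of 12 rose and 3 fell with MRTX1133. Of other immediate early genes 1 of 14 rose and none fell, 4 of 15 rose and 5 fell and 3 of 15 rose and 3 fell, and Ccn1, which encodes a matricellular protein, rose in all 3 (1.43, 2.32 and 1.85). Of heat shock genes none of 8 was called, 4 of 8 rose and 1 fell and 3 of 8 rose and none fell, with summed levels of 2912 and 3760.1 CPM with ethanol and 4082 and 4156 CPM with 4OHT in the vehicle groups. Of the markers of other cells, Csf1r and Pecam1 fell at 2 weeks (1 of 2 immune and 1 of 2 endothelial markers, immune sums 18.4 and 44.7 CPM and then 10.2 and 13.6 CPM), none was called with vehicle, and Col1a1, Lyz2 and Vwf, 1 marker of each list, rose with MRTX1133 (fibroblast sums 0.115 and 0.121 CPM and then 0.473 and 0.426 CPM). No epithelial marker was called. The part of these genes in the FOS family's changes was not tested.

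With doxycycline in H1651 edgeR called none of the 10 members, beside 1.42% of 17351 genes (1.04% higher and 0.386% lower). The number of members with an unadjusted p under 0.05 was 0 in edgeR, and DESeq2 called 0. EGR1 was at 242 and 463 CPM without doxycycline and 94.7 and 331 CPM with it (change -0.73, SE 0.53, edgeR adjusted p = 0.657), FOS at 96.8 and 148 CPM and then 49.8 and 141 CPM, and FOSB at 9.32 and 22.4 CPM and then 2.32 and 9.67 CPM (change -1.42, SE 0.61, edgeR adjusted p = 0.405). EGR2 was at 1.15 and 3.59 CPM and then 0.275 and 2.43 CPM, and EGR3 at 0.330 and 1.37 CPM and then 0.236 and 0.574 CPM. Replicate 2 was the higher library of both groups for these 5 genes, and its summed heat shock genes were higher too, with 4492 and 5187 CPM without and 4795 and 5948 CPM with doxycycline in replicates 1 and 2, a relation that was not tested. At each replicate number these 5 genes were lower with doxycycline, but the numbers are not known to mark pairs. With 1 library left out the EGR1 change ran from -1.90 (edgeR adjusted p = 0.00538) without doxycycline replicate 2 to -0.09 without doxycycline replicate 1. That of FOSB ran from -2.77 (edgeR adjusted p = 0.00882) without doxycycline replicate 2 to -0.65 without control replicate 2. FOSL1, FOSL2, JUN, JUNB and JUND had changes of 0.29, 0.10, 0.11, 0.08 and -0.08. Without doxycycline replicate 2, 3 members were called, and without control replicate 1, 1. Of the lists, 2 of 12 ERK output genes and 2 of 5 epithelial markers rose, and no partner, upstream factor, other immediate early gene, AP-1 target, heat shock gene or other marker was called.

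Per kilobase of exon, Jund was the most abundant member in each of the 22 mouse libraries, from 121 to 257 CPM per kilobase, and Junb was next. Within the FOS family the share of Fosl1 was lower with trametinib and higher with 4OHT. In 3311 Fosl1 made up 58.3% and 64.0% of the summed FOS family level per kilobase with vehicle and 5.99% and 11.4% with trametinib, while Fosl2 went from 30.7% and 23.4% to 88.7% and 82.4%. In 1027B the Fosl1 share went from 36.6% and 34.0% to 4.56% and 4.20% with trametinib and to 18.6% and 11.8% with MRTX1133. In 3154 at 2 weeks the Fosl1 share went the other way, from 10.3% and 10.8% with ethanol to 36.1% and 40.4% with 4OHT, and in the 48 h experiment with vehicle from 1.80% and 6.30% to 18.4% and 20.6%. Fosb never passed 1.38% of the family. Among the JUN genes of 1027B, Junb went from 40.8% and 40.0% of the family to 20.8% and 21.2% with trametinib, and Jun from 8.98% and 6.68% to 16.6% and 15.3%.

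**Figure D4:**
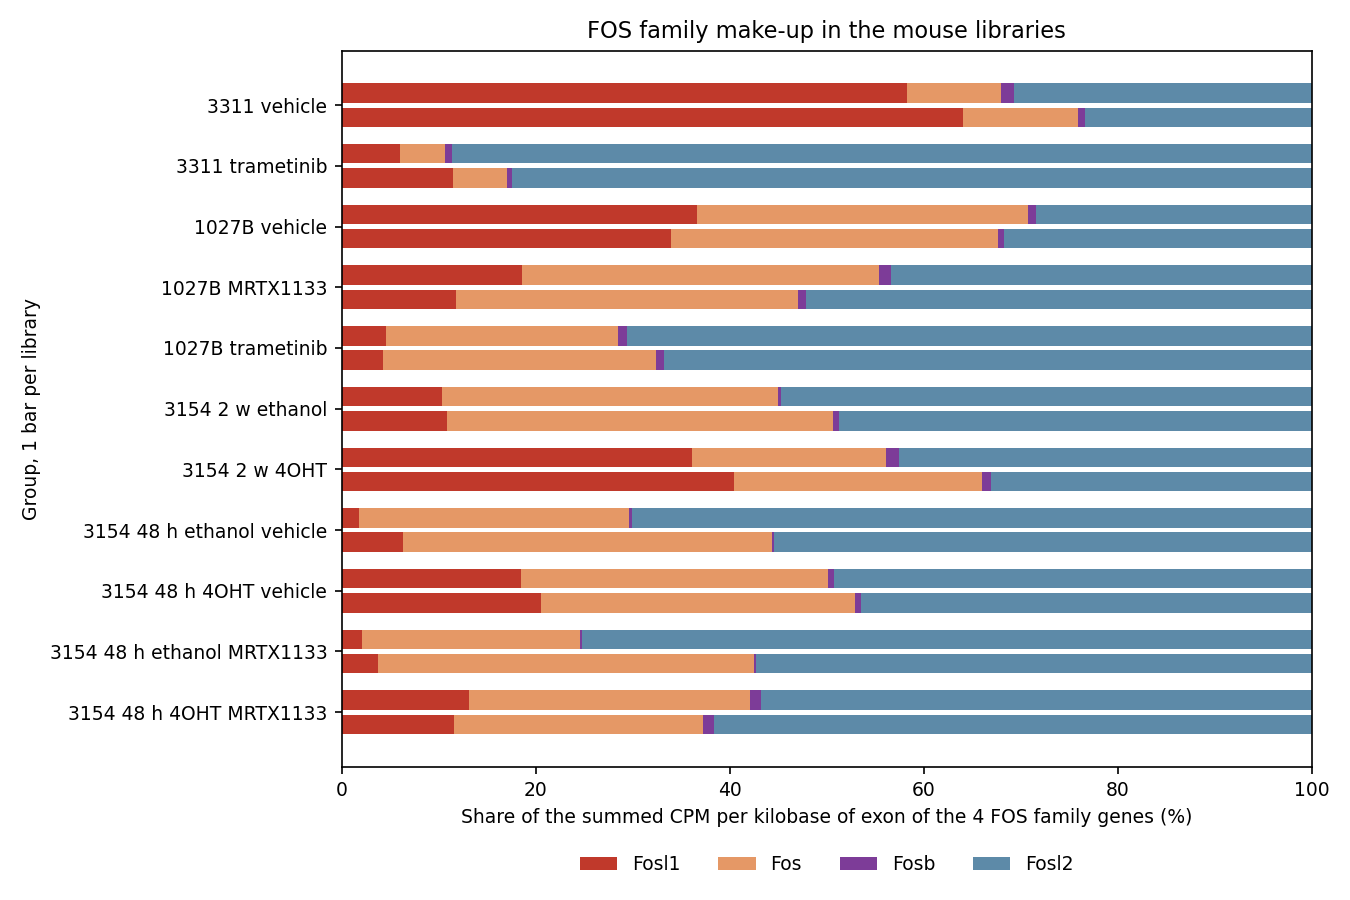
Share in percent (horizontal axis) of each FOS family gene in the family's summed CPM per kilobase of exon, with 1 bar for each of the 22 mouse libraries by group (vertical axis). Fosl1 takes the larger part of the bar in 3311 with vehicle (58.3% and 64.0%), and Fosl2 in 3311 with trametinib (88.7% and 82.4%).

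Exon lengths are those of GENCODE M21 on GRCm38, where 57.2% of the exon bases of Fosl1 (chr19:5447547-5455946, plus strand) lie opposite Ccdc85b and 52.6% of those of Jund (chr8:70698949-70700616, plus strand) opposite Gm11175. The library kit keeps strand, but the strand setting of the counting is not given in the sources used here, so reads of such pairs may not have been told apart. The levels per kilobase use the full exon length, shared bases included. Gm11175 had group means of 0.648 to 4.16 CPM, where those of Jund were 214 to 379 CPM, and was called in no mouse comparison. Ccdc85b changed by -0.73 and -0.72 with trametinib in 3311 and 1027B (edgeR adjusted p = 0.0364 and 0.00502), where Fosl1 changed by -3.69 and -4.34. With MRTX1133 in 1027B it changed by -0.52 (edgeR adjusted p = 0.0403), where Fosl1 changed by -2.07. Its values were 0.29, 0.01 and 0.02 in the 3 comparisons of 4OHT with ethanol, none of them called.

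Across the 11 mouse groups Fosl1 was highest in 3311 with vehicle (mean 67.3 CPM) and then 1027B with vehicle (52.3 CPM), whose libraries overlapped. Next came 3154 with 4OHT at 2 weeks (23.5 CPM), and then 3154 with 4OHT and vehicle at 48 h (14.2 CPM) and 1027B with MRTX1133 (12.4 CPM), which overlapped. The remaining 6 groups ran from 7.501 CPM in 3154 with ethanol at 2 weeks down to 2.41 CPM in 3154 with ethanol and MRTX1133, each overlapping the next. In human cells H358 with vehicle was highest (107 CPM), followed by H1651 with vehicle at 48 h (13.8 CPM). These levels cross tables that were normalized separately and are a description.

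The genes whose levels followed Fosl1, Egr1 and Fos most closely were taken from 12598 genes tested in every mouse table, by Pearson's r of log2 CPM centred within each table over the 22 mouse libraries. For Fosl1 they were 0710001A04Rik (0.97), Sh2d1b1 (0.96), Ereg (0.95, human 0.93), Gm49774 (0.95) and Wincr1 (0.95), where Ereg encodes the EGF receptor ligand epiregulin. For Egr1 they were Areg (0.94, human 0.63), Plscr1 (0.93, human -0.43), Vgf (0.93, human 0.79), Etv4 (0.91, human 0.81) and Klra2 (0.91), where Areg encodes another EGF receptor ligand, amphiregulin. For Fos they were Tmem95 (0.97), Dusp5 (0.94, human 0.44), Mrc1 (0.93), Cmas (0.91, human 0.24) and Pdlim1 (0.90, human -0.21). The human value is r over the 12 human libraries, and Plscr1 and Pdlim1 had the opposite sign there. Fosl1 and Egr1 themselves had r = 0.84 in mouse and 0.81 in human. The libraries share treatments, tables and depth, so no p is given.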

How the data were processed

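RNA was sequenced from 34 libraries with a poly(A), strand-keeping kit, per the labels' protocols. The deposited values are raw read counts per gene in 7 tables, which per the submitters' processing notes were made with cutadapt 3.5, STAR 2.7.6a and featureCounts 1.6.3 on mm10, mm39 or hg38. Which table used which build is not given in the sources used here. Rows with a gene ID but no symbol (0 to 5199 a table) were kept. The columns of the 3311 table name treatment and replicate but no cell line, and each was matched to its samples by the table and those names.

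Each table was fitted with edgeR 4.0.16 (R 4.3.3): filterByExpr, TMM factors and the quasi-likelihood F-test, with Benjamini-Hochberg adjustment over all genes of the table and a threshold of 0.05. The 6 libraries of 1027B and the 8 of the 48 h experiment of 3154 each shared 1 fit, and H358 and H1651 had a joint fit of 8 libraries for their difference. SE is the absolute log2 change divided by the square root of F. The scripts were tested on simulated data. DESeq2 1.42.0 and other settings were alternatives.

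All 10 members are reported in every comparison. Of the lists (AP-1 and EGR partners and inhibitors, SRF and ternary complex factors, other immediate early genes, ERK output, AP-1 targets, heat shock genes, and epithelial, fibroblast, immune and endothelial markers) the counts are given and at most the 2 called genes with the largest change are named per comparison. Likeness names 5 genes per member by r. Members and lists were chosen with earlier results of these data known. An allele and a gene of the AP-1 target list are not reported here, and the counts and medians of that list leave the gene out.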

Additional observations from a re-analysis of the deposited data

Results flagged for a closer look

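The trametinib change differed between H358 and H1651, by the interaction term of the joint fit, for FOSL2 (1.35 higher in H358), JUN (0.91 higher) and JUNB (0.67 higher). FOSL2 and JUN rose in H358 and were not called in H1651, and JUNB was called in neither line. The JUNB difference (edgeR adjusted p = 0.0463) was no longer called when any of 7 of the 8 libraries was left out, with RLE factors or with no count filter, and that of JUN was not called without H358 vehicle replicate 2.

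Other members moved in opposite directions in every library of 2 cultures given the same drug, at doses that differ, and these differences were not tested. Junb changed with trametinib by -0.72 in 3311 and by -0.93 in 1027B, where it was called, and by 0.13 in H358. Jund changed with trametinib by 0.24 in 3311 and by -0.18 in H358, neither called. Fosb changed with MRTX1133 by -0.38 in 1027B and by 0.40 in 3154 organoids after 4OHT, neither called.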

How the results depend on the processing

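Of the 27 called member changes, recomputed 268 times with DESeq2, RLE factors, other count filters, the replicate number as a block, only the groups compared or 1 library left out, 240 values stayed called in the same direction and 28 were no longer called, none reversed. Those losses are given beside the results, and the cause was not tested. Among changes that were not called, 76 of 958 recomputed values passed the threshold and 66, from 37 changes, took the other sign.

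The number of called members moved as follows. With DESeq2 it was 3 for MRTX1133 in 1027B, 3 for MRTX1133 against trametinib, 3 for 4OHT at 2 weeks, 2 for MRTX1133 after 4OHT and 1 for trametinib in H1651. DESeq2 also gave 3 for 4OHT with vehicle (Jun added), 4 for 4OHT with MRTX1133 (Fosl1 added) and 4 for H358 minus H1651 (EGR1 added). With only the 2 groups compared it was 2 for MRTX1133 in 1027B and 4 for MRTX1133 after 4OHT. With at least 10 counts in every library it was 0 for 4OHT at 2 weeks, and with no count filter 1 for trametinib in H1651. With 1 library left out it ranged from 0 to 4 for 4OHT at 2 weeks, 0 to 4 for 4OHT with vehicle, 0 to 3 for 4OHT with MRTX1133, 0 to 3 for doxycycline, 0 to 2 for trametinib in H1651 and 1 to 4 for H358 minus H1651.

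The groups share only replicate numbers 1 and 2, which the labels tie to no day, litter or donor, so the numbers were not treated as pairs. The deviations of same-numbered libraries correlated across genes at -0.25 to 0.62, with 0.62 for trametinib in H1651, 0.43 for 4OHT at 2 weeks, 0.24 to 0.41 in 1027B and 0.32 in H358 and with doxycycline. With the number as a block the called members were 4 for MRTX1133 in 1027B (Fos, Fosl1, Jun and Junb), 6 for MRTX1133 against trametinib (all tested but Fosb and Fosl2), 5 for 4OHT at 2 weeks (Fos, Fosl1, Fosl2, Jun and Egr2), 4 for doxycycline (FOS, FOSB, EGR1 and EGR2), 4 for trametinib in H1651 (FOS, FOSL1, JUNB and EGR1) and 7 for H358 minus H1651 (all tested but FOS). For trametinib in H358 they were 6, FOS and FOSB added. In the other comparisons the count with the block was within 1.5 times of that without it. For 4OHT with MRTX1133, where the correlation was -0.20, the block called 4 members with the numbers as labelled, and a block with crossed numbers, chosen after seeing the data, also 4.

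Counts of all called genes by edgeR, DESeq2 and the block were 913, 1636 and 3515 for MRTX1133 in 1027B, 0, 712 and 2050 for MRTX1133 against trametinib, 1421, 2311 and 4563 for 4OHT at 2 weeks, and 247, 451 and 3048 for doxycycline. They were 0, 47 and 1881 for trametinib in H1651, 54, 330 and 62 for MRTX1133 after ethanol, 717, 1342 and 759 after 4OHT, and 0, 36 and 0 for the interaction. The block gave 6540 against 3880 for trametinib in 1027B and 8472 against 4087 for H358 minus H1651.

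None of the changes that took the other sign was called. Junb with 4OHT at 2 weeks was -0.0008 with DESeq2 and -0.0004 with RLE factors, and the interaction of Fosl2 was 0.0243 with DESeq2 and with RLE factors, 0.0009 with at least 10 counts in every library and 0.0164 with the replicate block. The others reversed when 1 library was left out. Lowest and highest changes were for trametinib in 1027B Fosl2 -0.54 to 0.16, and for MRTX1133 in 1027B Fosl2 -0.44 to 0.11, Jund -0.16 to 0.0871, Egr1 -0.42 to 0.10, and for MRTX1133 against trametinib Fosl2 -0.33 to 0.37. The ranges ran for 4OHT at 2 weeks Junb -0.46 to 0.61, Jund -0.0613 to 0.15, Egr1 -0.73 to 0.72, Egr3 -1.39 to 1.84, and for MRTX1133 after ethanol Fosl1 -1.39 to 0.37, Fosl2 -0.50 to 0.0219, Junb -0.43 to 0.20, Jund -0.22 to 0.21, Egr1 -0.39 to 1.28, Egr2 -3.78 to 2.69, and for 4OHT with vehicle Junb -0.40 to 0.23. The ranges ran for 4OHT with MRTX1133 Junb -0.13 to 0.0598, Egr1 -0.36 to 0.79, Egr2 -0.84 to 5.64, and for the interaction Fos -0.63 to 0.0444, Fosl1 -1.55 to 0.21, Fosl2 -0.23 to 0.29, Junb -0.27 to 0.35, Egr1 -1.65 to 0.0174, Egr2 -3.86 to 2.62, and for trametinib in 3311 Jun -0.0138 to 0.30. The ranges ran for doxycycline FOS -1.30 to 0.20, FOSL2 -0.00300 to 0.20, JUN -0.24 to 0.38, JUNB -0.0742 to 0.22, EGR2 -3.10 to 0.20, EGR3 -1.85 to 0.27, and for trametinib in H1651 FOSL2 -0.26 to 0.22, and for trametinib in H358 FOS -4.19 to 0.78, FOSB -1.28 to 2.97. The ranges ran for H358 minus H1651 FOS -3.36 to 1.68, FOSB -0.78 to 3.54. Depth limits Egr2 in 3154, H358 and H1651 at 48 h, and Egr3 in 1027B and the same 48 h tables.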
